A study of Mus musculus with 6 samples.

Results

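Galanin, neuropeptide Y and CART genes (7 genes of 3 neuropeptide systems) were followed through spinal neurons: the peptide genes Gal (galanin), Npy (neuropeptide Y) and Cartpt (the CART prepropeptide), and the receptor genes Galr1, Npy1r, Npy2r and Npy5r. They were chosen by gene symbol from the 19954 genes of the count table, and all 7 members were found. The choice was made with earlier results on neuron subtypes, on excitatory and inhibitory neurons and on stimulation in view, so the levels and changes of these 7 genes are given as descriptions.

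Galanin and neuropeptide Y are co-transmitters stored in dense-core vesicles and released by strong or repeated firing. Their receptors Galr1, Npy1r, Npy2r and Npy5r couple to inhibitory G proteins, which lower cyclic AMP and open potassium channels. In the dorsal horn, both peptides are known from inhibitory interneurons that restrain pain and itch pathways, Npy1r is known from excitatory interneurons that receive neuropeptide Y, and Npy2r is known as a presynaptic autoreceptor. CART peptides are made from the Cartpt precursor and have no member among the receptors followed here.

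The counts came from single nuclei of the spinal cord of wild-type C57BL/6 mice with legs paralysed by a severe thoracic contusion. Mice of both groups spent 30 min on a treadmill, and the 3 TESS samples received targeted epidural electrical stimulation whereas the 3 CON samples, labelled paralyzed, did not. Agonists at 5-HT1a, a serotonin receptor, and at D1, a dopamine receptor, were part of the stimulated condition, and whether CON mice had them is not clear from the series text. The source label is lumbar cord, but the extraction protocol refers to the thoracic lesion, and no label says that samples are separate animals, so the spread between samples may in part be technical.

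The table holds 18514 nuclei, 6035 of them neurons in 38 subtypes named by the authors; the series text states 20484 nuclei and 6171 neurons. Samples held 703 to 1237 neurons each, with a median of 1210 to 2130 UMIs (unique molecular identifiers, 1 per captured RNA molecule) per neuron; the lowest medians were those of TESS 3 and TESS 2. A barcode that also occurs in another library was carried by 411 nuclei. CON 1, CON 2 and TESS 1 share batch 3, whereas CON 3, TESS 2 and TESS 3 each have a batch of their own. The 5 neuron marker genes summed to 16070 to 23180 CPM (a gene's UMIs scaled to a total of 1000000 UMIs in the class or subtype) in neurons of CON samples and 16687 to 19496 in TESS samples. The 5 oligodendrocyte markers summed to 572 to 735 and 588 to 814 in the same nuclei, against 25360 in oligodendrocytes.

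Subtypes were put in a class by their summed transmitter genes, which gave 20 excitatory subtypes (3086 nuclei), 17 inhibitory subtypes (2880 nuclei) and 1 cholinergic subtype, MN (69 nuclei). The class of subtype Fxyd6 bears on Cartpt. Its 366 nuclei held 238 CPM of excitatory transmitter genes, 335 of inhibitory ones and 82.7 of cholinergic ones, and they were counted as inhibitory. V1/V2b/Slit2 was mixed too, with 180 excitatory and 602 inhibitory. Values with both subtypes counted as excitatory are given beside the results that turn on them.

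Gal lies on the minus strand of chromosome 19 (chr19:3409915-3414544, GRCm38, GENCODE vM21), Npy on the plus strand of chromosome 6 (chr6:49822710-49829507) and Cartpt on the minus strand of chromosome 13 (chr13:99898489-99901091). All are protein-coding and none overlaps another annotated gene. Because Gal, Npy and Cartpt all had lower mean levels in neurons of TESS samples, the 250 bases before their RefSeq starts (GRCm38.p6) were searched on both strands for the cyclic AMP response element (CRE, TGACGTCA), the shorter core TGACG, the AP-1 site TGANTCA, the Egr site GCGNGGGCG and the TATA box TATAAA. The sequences are shown 5′ to 3′ in the direction of transcription, and capitals mark a match. Gal is at chr19:3414545-3414794 (minus strand) and Npy at chr6:49822460-49822709 (plus strand). For Cartpt only the 30 bases around its CRE are given, at chr13:99900777-99900806 (minus strand), because a longer GENCODE transcript covers that stretch as untranslated exon.
Gal: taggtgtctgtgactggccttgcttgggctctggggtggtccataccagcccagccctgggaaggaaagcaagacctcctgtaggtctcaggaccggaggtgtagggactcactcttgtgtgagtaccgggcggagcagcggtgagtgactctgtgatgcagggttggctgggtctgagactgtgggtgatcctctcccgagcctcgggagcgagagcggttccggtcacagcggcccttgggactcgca
Npy: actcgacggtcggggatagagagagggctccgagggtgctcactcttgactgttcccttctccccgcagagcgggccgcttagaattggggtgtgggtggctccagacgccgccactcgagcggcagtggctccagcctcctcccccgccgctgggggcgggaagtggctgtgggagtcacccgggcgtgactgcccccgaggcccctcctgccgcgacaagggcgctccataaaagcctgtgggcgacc
Cartpt: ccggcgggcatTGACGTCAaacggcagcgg
The Cartpt match spans bases 112 to 105 before the RefSeq start and holds the CRE core on both strands. A full CRE was found in 1.55% of 32851 promoter windows of the same length, and the core, which the CRE contains, in 17.8%. None of the motifs was found in the Gal or Npy windows. Of the receptor genes, 3 had a window, and the AP-1 letters were found in Npy1r, as in 6.75% of all windows. A match is a run of letters and not evidence of binding.

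Transcripts of all 7 genes came mostly from neurons. Gal had 1217 of its 1257 UMIs in neurons, Npy 2563 of 2718 and Cartpt 746 of 800. The receptor genes were sparse: Galr1 had 76 UMIs in neurons, Npy1r 180, Npy2r 61 and Npy5r 210, with at most 3 in any nucleus. Peptide transcripts were concentrated in few nuclei. Gal was seen in 299 neurons, and the 91 neurons with 5 or more UMIs held 69.1% of its neuronal UMIs; for Npy, 138 of 571 neurons with a UMI held 70.2%, and for Cartpt, 38 of 237 held 57.6%.

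Free RNA sets a background in droplet libraries. Oligodendrocytes, which should lack the peptides, had an Npy UMI in 0.973% of nuclei, a Gal UMI in 0.260% and a Cartpt UMI in 0.362%. With each nucleus thinned to 500 UMIs, Npy was seen in 1.35% ± 0.49 (SD, n = 3) of CON oligodendrocytes and 0.739% ± 0.411 of CON excitatory neurons. The share in excitatory neurons was thus no higher than in oligodendrocytes, and whether it is background was not tested. The same comparison gave 0.256% ± 0.326 against 1.18% ± 0.18 for Gal and 0.0693% ± 0.1200 against 2.17% ± 0.78 for Npy1r, both higher in excitatory neurons. Thinning left out 3080 of the 5264 CON oligodendrocytes but 29 excitatory neurons.

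Gal was concentrated in 1 inhibitory subtype. The 176 nuclei of Pnoc, a subtype the authors named for prepronociceptin, held 890 Gal UMIs, 73.1% of those in neurons, and 84.7% of its nuclei had at least 1. Its level was 3177 ± 927 CPM of the subtype (SD over 6 samples). Next came 2 excitatory subtypes, Meis2 at 508 ± 326 and Trh at 351 ± 107, then Pdyn at 138 ± 216. Pnoc stood above Meis2 by more than the larger SD, whereas the gaps from Meis2 to Trh and from Trh to Pdyn were within it. Of the 41 Gal UMIs in Pdyn, 29 lay in 1 nucleus of CON 3. Gal was listed at 0 in 11 of 38 subtypes, the Npy subtype and MN among them.

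Npy was spread over several inhibitory subtypes. The 84 nuclei of the Npy subtype held 1192 UMIs, 46.5% of those in neurons, at 9303 ± 3542 CPM. Lxh1/Nxph1 (name as deposited) followed with 1540 ± 701, Rorb with 922 ± 556, Rorb-I with 608 ± 207 and Nrgn/Rora-I with 265 ± 93. The Npy subtype stood above Lxh1/Nxph1, and Rorb-I above Nrgn/Rora-I, by more than the larger SD; Lxh1/Nxph1, Rorb and Rorb-I were not separated from their neighbours by it. The first 4 subtypes held 79.0% of the neuronal Npy UMIs.

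Cartpt had no single main subtype. Its level was 685 ± 392 CPM in Pnoc, 533 ± 319 in Npy, 313 ± 140 in Meis2, 312 ± 148 in Fxyd6 and 151 ± 194 in Rorb, with no neighbouring pair in this order separated by more than the larger SD. By UMIs, Pnoc (220) and Fxyd6 (215) each held more than any other subtype, 29.5% and 28.8% of the total. In Fxyd6, looked at by nucleus after its values were seen, 12 nuclei with 5 or more Cartpt UMIs held 194 of the 215. Of these 12, 5 also had a UMI of a cholinergic gene, against 20 of the other 354 Fxyd6 nuclei, at median depths of 2885 and 1734 UMIs. An excitatory transmitter gene was seen in 2 of the 12 and 114 of the 354, and an inhibitory one in 2 and 97. The class given to most Cartpt UMIs of Fxyd6 thus rests on the transmitter genes of the whole subtype. In MN, the motor neuron and cholinergic subtype, Cartpt had 24 UMIs: 1, 0 and 1 in CON 1 to CON 3 and 2, 10 and 10 in TESS 1 to TESS 3. These came from 17, 5 and 12 MN nuclei in CON and 10, 15 and 10 in TESS. With each nucleus thinned to 500 UMIs, 1 of 33 CON and 2 of 32 TESS nuclei had a Cartpt UMI, too few to read a change. The sample medians of MN were 2559.5 to 4848 UMIs, so thinning dropped most UMIs and cannot settle the unthinned difference. That difference was not tested.

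**Figure D1:**
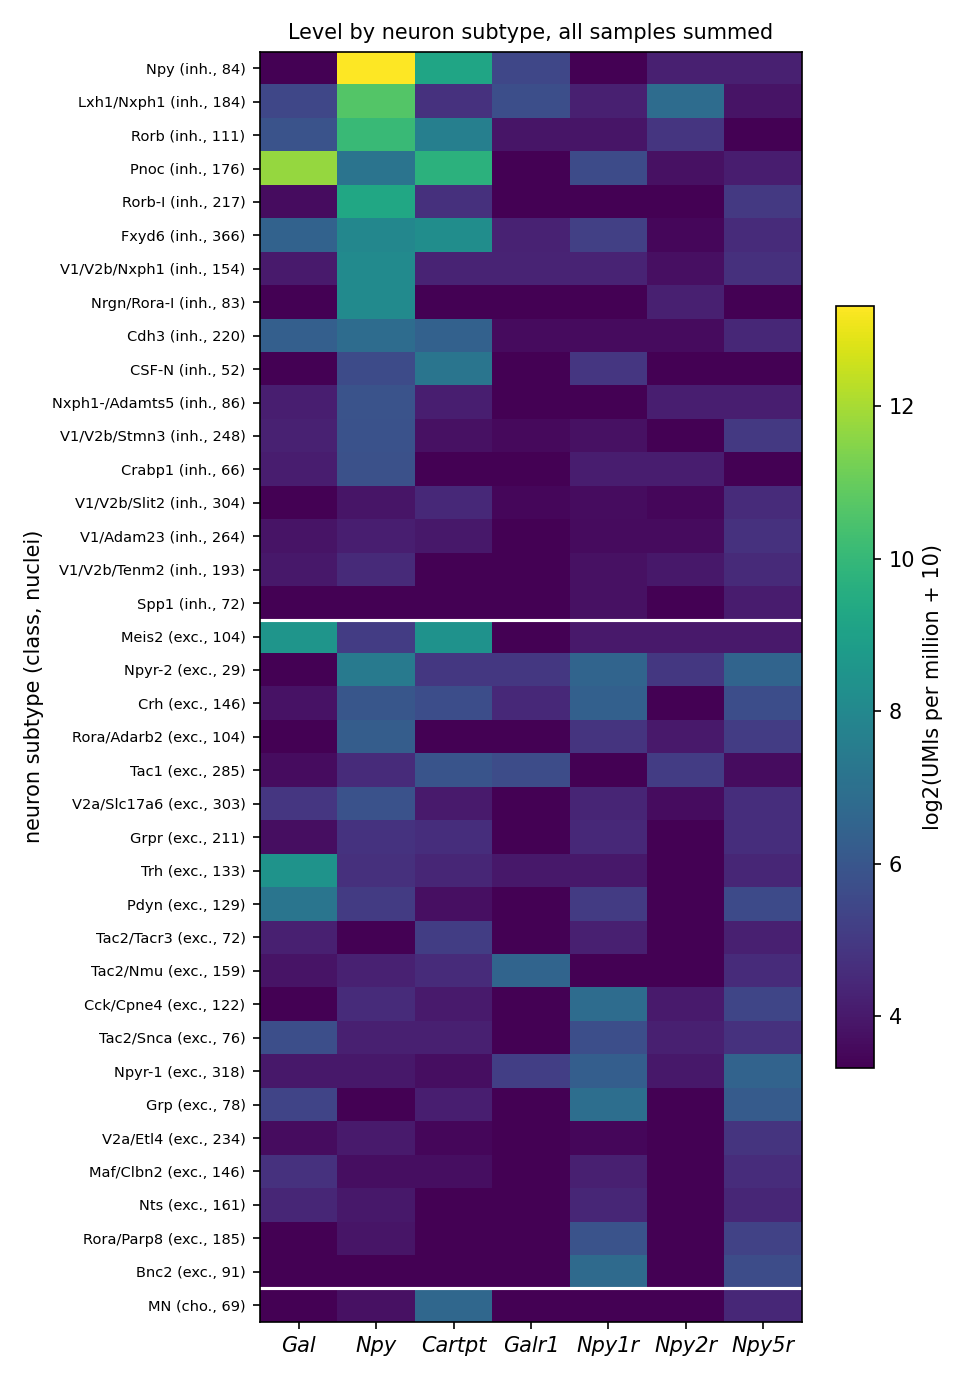
Level of the 7 genes (columns) in 38 neuron subtypes (rows, with class and number of nuclei; inh., inhibitory; exc., excitatory; cho., cholinergic), as log2 of CPM plus 10 with all samples summed. Gal is brightest in Pnoc, Npy in Npy, and the receptor genes are low throughout, with Npy1r and Npy5r in excitatory rows.

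The receptor genes had another distribution. Galr1 (chr18:82392380-82406777, minus strand), a galanin receptor, was highest in the excitatory subtypes Tac2/Nmu (63.7 ± 68.6 CPM) and Tac1 (37.8 ± 28.5) and in inhibitory Lxh1/Nxph1 (53.7 ± 53.7). Galr1 had 0 UMIs in the 176 Pnoc nuclei, where Gal was highest, which allows a level of up to 11.4 CPM (3 UMIs over the subtype, counting error only). Npy1r (chr8:66697192-66706792, plus strand), the postsynaptic neuropeptide Y receptor, reached 102 ± 81 in Grp, 94.1 ± 72.3 in Cck/Cpne4 and 71.0 ± 38.9 in Crh. Npy5r (chr8:66679965-66688128, minus strand), a neighbour of Npy1r with 9063 bases between the genes, reached 68.7 ± 45.0 in Grp and 60.3 ± 54.3 in Npyr-1, both excitatory. Npy2r (chr3:82538383-82548084, minus strand) had 25 of its 61 neuronal UMIs in Lxh1/Nxph1, at 90.3 ± 69.4. With so few UMIs, apart from Npy2r in Lxh1/Nxph1, no top subtype was separated from the next by its SD.

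Across 37 subtypes of at least 50 nuclei, Npy1r and Npy5r had a Pearson r of 0.65, Npy and Npy2r 0.52, Gal and Cartpt 0.50, and Npy and Npy1r −0.27, on log2(CPM + 10). The subtypes share libraries and were clustered on such genes, so these are descriptions. By the same measure, over 10290 genes, the genes most like Gal were Pdyn (r = 0.67), the opioid prodynorphin, and 4933408B17Rik (0.60). Those most like Npy were Pax8 (0.80), a dorsal lineage transcription factor, and Dscaml1 (0.77). Pnoc (0.70) and Atg9b (0.65) were most like Cartpt. With a pseudocount of 1 in place of 10, 2 of the 5 genes most like Gal were the same, 4 of 5 for Npy and 1 of 5 for Cartpt.

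Within single nuclei the peptides overlapped in part. Of 57 Pnoc nuclei with a Cartpt UMI, 51 also had Gal, beside 149 of all 176 Pnoc nuclei. Cartpt was seen in 34.2% of the 149 with Gal and in 22.2% of those without, at median depths of 1465 and 984 UMIs. In the Npy subtype all 24 nuclei with Cartpt also had Npy, as did 79 of all 84 nuclei. Of the 79, 30.4% had Cartpt and none had Gal. Gal and Npy were both seen in 35 neurons, 11.7% of those with Gal and 6.13% of those with Npy. Npy2r was the receptor most often found with its peptide: 25 of 57 neurons with Npy2r had Npy, beside 571 of all 6035 neurons. In Lxh1/Nxph1, 19 of 23 nuclei with Npy2r had Npy, beside 110 of all 184 nuclei. Nuclei of Lxh1/Nxph1 with Npy were deeper, with a median of 1394 UMIs against 1042. By contrast, 6 of 171 neurons with Npy1r and 2 of 67 with Galr1 had the peptide of that receptor.

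Inhibitory neurons carried most of the peptide transcripts and excitatory neurons most of Npy1r and Npy5r. The mean level over 6 samples was 152 ± 69 CPM in inhibitory and 40.0 ± 11.7 in excitatory neurons for Gal, and 374 ± 131 against 19.5 ± 8.1 for Npy. For Cartpt it was 96.1 ± 31.7 against 18.7 ± 9.3. All 3 were higher in inhibitory neurons in 6 of 6 samples. With Fxyd6 and V1/V2b/Slit2 counted as excitatory, Gal was 188 ± 89 against 38.9 ± 12.3 and Npy 457 ± 161 against 42.3 ± 19.3, again higher in 6 of 6. Cartpt was then 75.8 ± 45.6 against 50.5 ± 13.6 and higher in inhibitory neurons in 4 of 6 samples. Npy1r was 7.21 ± 2.52 in inhibitory and 24.1 ± 4.2 in excitatory neurons, and Npy5r 11.9 ± 5.2 and 23.3 ± 5.3, both higher in excitatory neurons in every sample. Galr1 was higher in inhibitory neurons in 3 of 6 samples, and in 2 of 6 with the mixed subtypes counted as excitatory. Npy2r was higher there in 4 of 6, and in 6 of 6 with those subtypes moved (8.02 ± 4.45 against 2.53 ± 2.52). With classes set by the number of nuclei with a transmitter UMI, inhibitory neurons were higher in 5 of 6 samples for Gal, 3 of 6 for Cartpt, 1 of 6 for Galr1 and 6 of 6 for Npy2r.

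**Figure D2:**
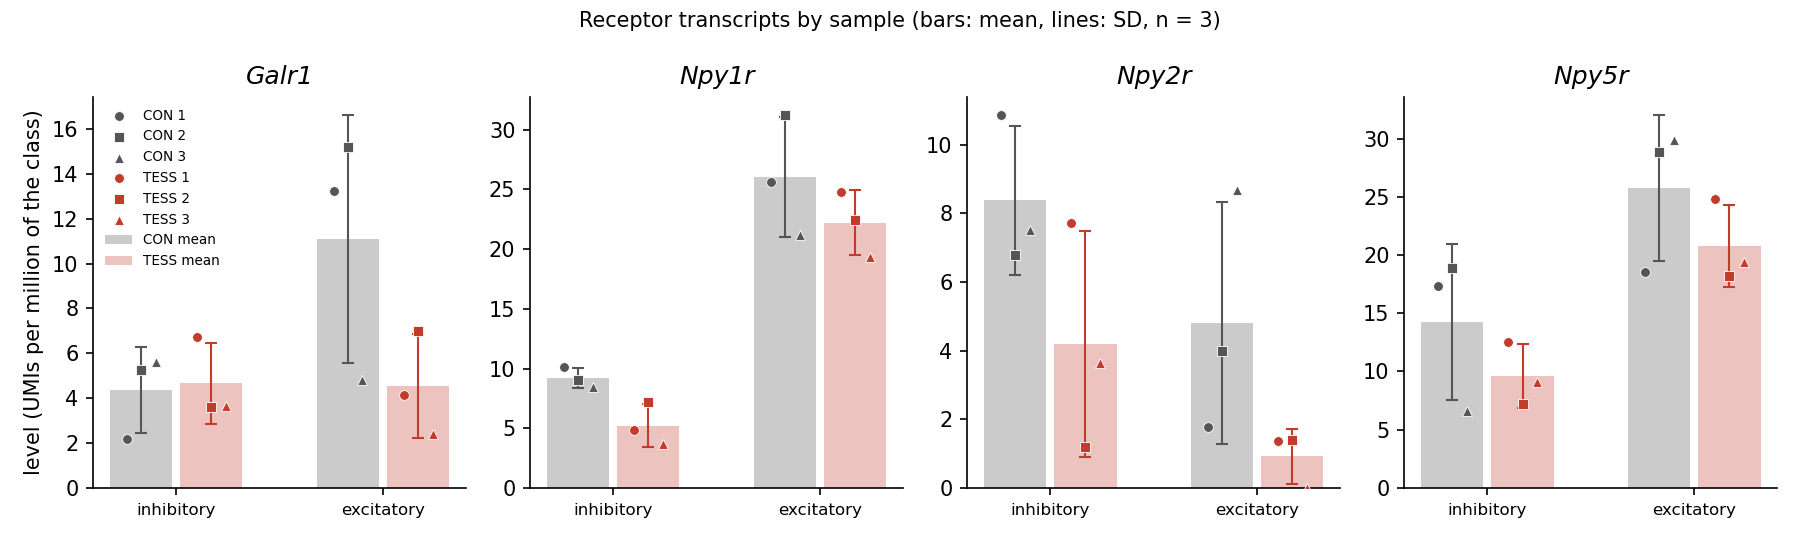
CPM of the 4 receptor genes in inhibitory and excitatory neurons, 1 point per sample, with mean (bars) and SD (lines) of 3 CON and 3 TESS samples. Npy1r and Npy5r lie higher in excitatory neurons in every sample; each panel has its own axis.

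Gal had lower values in inhibitory neurons of stimulated samples. Its level there was 211, 207 and 222 CPM in CON 1, CON 2 and CON 3 and 62.7, 103 and 108 in TESS 1, TESS 2 and TESS 3. Every TESS sample lay below every CON sample, and TESS 1 was lowest. The log2 change of TESS over CON was −1.29 ± 0.17 (SE) in edgeR's quasi-likelihood fit across all genes. In excitatory neurons Gal was 24.7, 30.4 and 56.9 in CON and 45.5, 36.5 and 46.0 in TESS, so the groups overlapped, with a log2 change of 0.17 ± 0.27. The inhibitory change minus the excitatory change was −1.48 ± 0.27 on the log2 scale. Inside batch 3, which has 2 CON samples and 1 TESS sample, the Gal value was −1.77 in inhibitory and 0.68 in excitatory neurons, with no test.

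Npy was also lower in inhibitory neurons. Its level there was 431, 512 and 483 CPM in CON and 349, 157 and 314 in TESS. The groups did not overlap and TESS 2 was lowest. The log2 change was −0.84 ± 0.18; without TESS 2 it was −0.56, and inside batch 3 it was −0.47. In excitatory neurons the Npy level was 16.8, 23.2 and 32.8 CPM in CON and 8.27, 16.8 and 19.4 in TESS. The thinned share of nuclei with Npy there was no higher than in oligodendrocytes.

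Cartpt depended on which neurons were counted. In inhibitory neurons its level was 71.7, 123 and 141 CPM in CON and 80.0, 103 and 58.4 in TESS, with overlap and a log2 change of −0.46 ± 0.22. With Fxyd6 and V1/V2b/Slit2 counted as excitatory, the change in the remaining inhibitory subtypes was −1.31 ± 0.27. In excitatory neurons Cartpt was 24.7, 21.6 and 32.8 in CON and 12.4, 8.42 and 12.1 in TESS, without overlap, and the change was −1.28 ± 0.36; with both subtypes counted there it was 0.30 ± 0.24. Inside batch 3 the value was −0.32 in inhibitory and −0.92 in excitatory neurons.

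**Figure D3:**
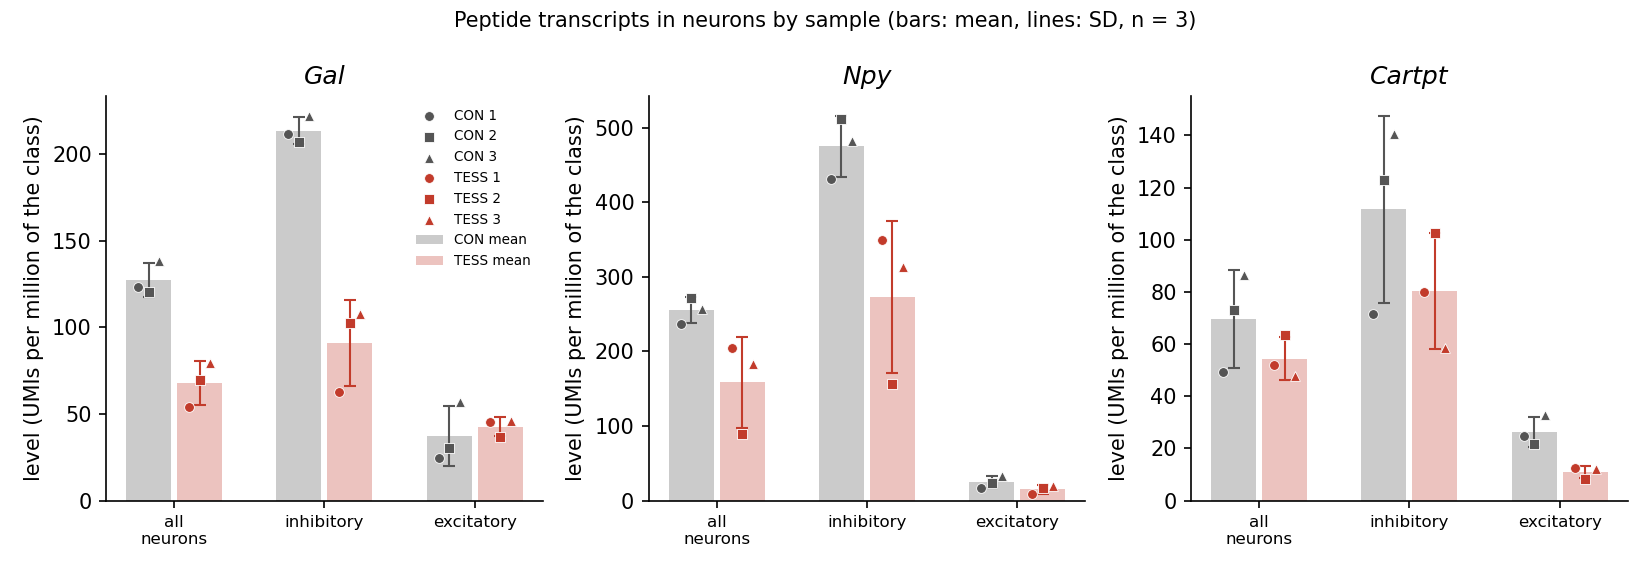
CPM of Gal, Npy and Cartpt in all, inhibitory and excitatory neurons, 1 point per sample, with mean (bars) and SD (lines) of 3 CON and 3 TESS samples. In inhibitory neurons, Gal and Npy of the 3 TESS samples lie below the 3 CON samples, and Cartpt overlaps.

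At an adjusted p under 0.05, Gal was called lower in all neurons, where 1.04% of 11686 genes were called, and Gal and Npy were called lower in inhibitory neurons, where 0.229% of 10049 genes were. In excitatory neurons, where 0.94% of 9464 genes were called, no member was by edgeR, with 2, Npy and Cartpt, at an unadjusted p under 0.05, and DESeq2 gave the 5 members tested no adjusted p. Gal was called in inhibitory neurons with each sample left out in turn, whereas Npy was not without CON 2 (−0.75), CON 3 (−0.81), TESS 2 (−0.56) or TESS 3 (−0.92), nor by DESeq2. Npy did not pass in all neurons (−0.72 ± 0.18). A fit with batch as a term rests on TESS 1 against CON 1 and CON 2, with TESS 1 assumed to vary like the others. In edgeR it called 0 genes in all neurons, Gal included (765 at an unadjusted p under 0.05). Cartpt passed in inhibitory neurons with the mixed subtypes moved, where 0.32% of genes were called. Because the members were chosen with these comparisons known, nothing is read from the calls. Gal, Npy, Npy1r and Npy2r were lower without overlap in all neurons, as were 8.61% of all genes tested. Among genes tested in inhibitory neurons this held for Gal and Npy, and for 7.48% of all, and among those tested in excitatory neurons for Cartpt, and for 8.25%.

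No receptor gene was called by edgeR in any of these classes, and 1, Npy2r in neurons, had an unadjusted p under 0.05; DESeq2 gave the receptor genes no adjusted p. Galr1 and Npy2r were too sparse to be tested in either class, and Npy1r in inhibitory neurons. In neurons Npy1r was 16.6, 19.6 and 14.5 CPM in CON and 12.7, 13.7 and 10.2 in TESS, a log2 change of −0.47 without passing the test. Npy2r was 6.56, 5.38 and 7.95 in CON and 4.98, 1.25 and 2.03 in TESS, from 61 UMIs in all. Npy5r (17.4, 23.4 and 18.7, then 17.7, 11.8 and 13.2) and Galr1 (6.95, 9.99 and 5.14, then 5.54, 4.99 and 3.05) overlapped between the groups. All 7 members had negative fitted changes in neurons, with a median of −0.67 beside −0.01 over all genes tested. The members were chosen with this comparison known, so the shared sign and the median are descriptions. Outside neurons, Npy1r had 6 UMIs in endothelial cells, 2 in each CON sample and 0 in TESS, too few to compare the groups.

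The number of Pnoc nuclei differed between samples. Pnoc gave 39, 28 and 49 nuclei in CON and 10, 34 and 16 in TESS, or 3.26% ± 0.70 and 2.27% ± 0.91 of neurons. As a share of inhibitory nuclei, TESS 2 (6.49%) lay within the CON range (5.69% to 8.86%), and TESS 1 (2.52%) and TESS 3 (4.56%) lay below it. Over the 9 subtypes that hold most peptide UMIs, no share passed a two-sided exact permutation test after Benjamini-Hochberg adjustment (lowest adjusted p = 0.36); with 3 samples a group the smallest unadjusted p is 0.1, which Rorb (2.12% ± 0.21 to 1.45% ± 0.17) and Trh (2.37% ± 0.40 to 1.97% ± 0.09) reached. With CON levels held and only the makeup of TESS samples taken, Gal in inhibitory neurons would differ by −0.55 on the log2 scale, and with the makeup held and only levels taken, by −0.66, of −1.23 in all. For Npy the same parts were −0.19 and −0.68 of −0.84, and for Cartpt −0.22 and −0.50 of −0.45. Each subtype was also drawn down to the same number of nuclei in all samples, which left 568 neurons per sample, fewer than in the main fit. The inhibitory changes were then −0.65 for Gal, −0.83 for Npy and −0.13 for Cartpt. Gal no longer passed (adjusted p = 0.19, edgeR), and how far the loss of nuclei accounts for that was not tested. Without Pnoc the inhibitory changes were −0.64 for Gal and 0.05 for Cartpt.

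Gal in Pnoc, Npy in the Npy subtype and Cartpt in Pnoc had lower mean levels in TESS samples, whereas Cartpt in Fxyd6 had a higher one. Gal in Pnoc was 4144, 4114 and 3334 CPM in CON and 2296, 1885 and 3290 in TESS. TESS 3 lay just under CON 3. The log2 change was −0.76 ± 0.21 and was called, as were 0.48% of the 834 genes tested there. The median Pnoc nucleus had 5 Gal UMIs in CON and 2 in TESS, and 51.7% and 23.3% of nuclei had 5 or more, at median depths of 1513 and 1124 UMIs. With each nucleus thinned to 500 UMIs, Gal was seen in 69.2% ± 5.1 of CON and 69.3% ± 4.4 of TESS Pnoc nuclei. In excitatory Meis2, Gal had higher values instead, at 360, 368 and 60.3 in CON and 798, 504 and 960 in TESS, from 59 UMIs. Meis2 had 19, 17 and 34 nuclei in CON and 5, 20 and 9 in TESS, too few for a subtype fit. With thinning, Gal was seen in 11.4% ± 5.8 of CON and 21.1% ± 11.7 of TESS Meis2 nuclei, and the samples overlapped. In Trh the Gal level was 176, 415 and 307, then 491, 338 and 381.

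Npy in the Npy subtype was 13464, 13750 and 9314 CPM in CON and 7050, 6503 and 5737 in TESS. TESS lay below CON without overlap, as it did for 5.37% of the 298 genes tested in this subtype. The log2 change was −0.91 ± 0.23. The median nucleus had 17 Npy UMIs in CON and 5 in TESS, at median depths of 1618 and 924 UMIs. With each nucleus thinned to 500 UMIs, Npy was seen in 97.4% ± 4.4 of CON and 80.8% ± 13.0 of TESS nuclei of this subtype. The other Npy subtypes overlapped between groups, with log2 changes of −0.53 ± 0.22 in Lxh1/Nxph1, −0.67 ± 0.37 in Rorb and −0.52 ± 0.27 in Rorb-I. Cartpt in Pnoc was 745, 956 and 1197 in CON and 261, 759 and 190 in TESS, a log2 change of −1.05 ± 0.31. In Fxyd6 it was 47.6, 380 and 314 in CON and 283, 494 and 353 in TESS, with a change of 0.53 ± 0.31, and the low value was that of CON 1.

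**Figure D4:**
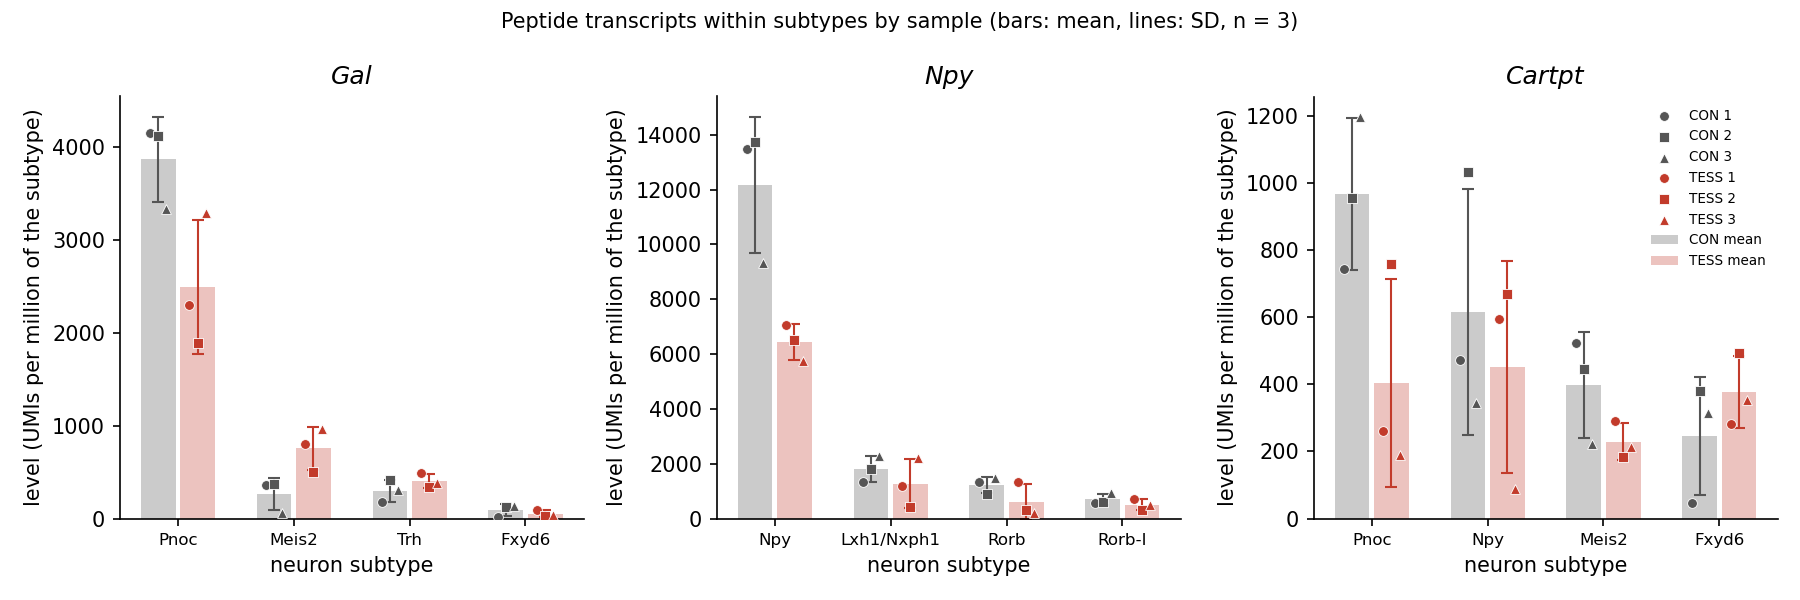
CPM of Gal, Npy and Cartpt within the subtypes with high levels, 1 point per sample, with mean (bars) and SD (lines) of 3 CON and 3 TESS samples. Npy in the Npy subtype lies lower in all TESS samples, and Cartpt in Fxyd6 overlaps. Gal in Meis2 lies higher, from 5 to 20 nuclei per TESS sample.

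**Figure D5:**
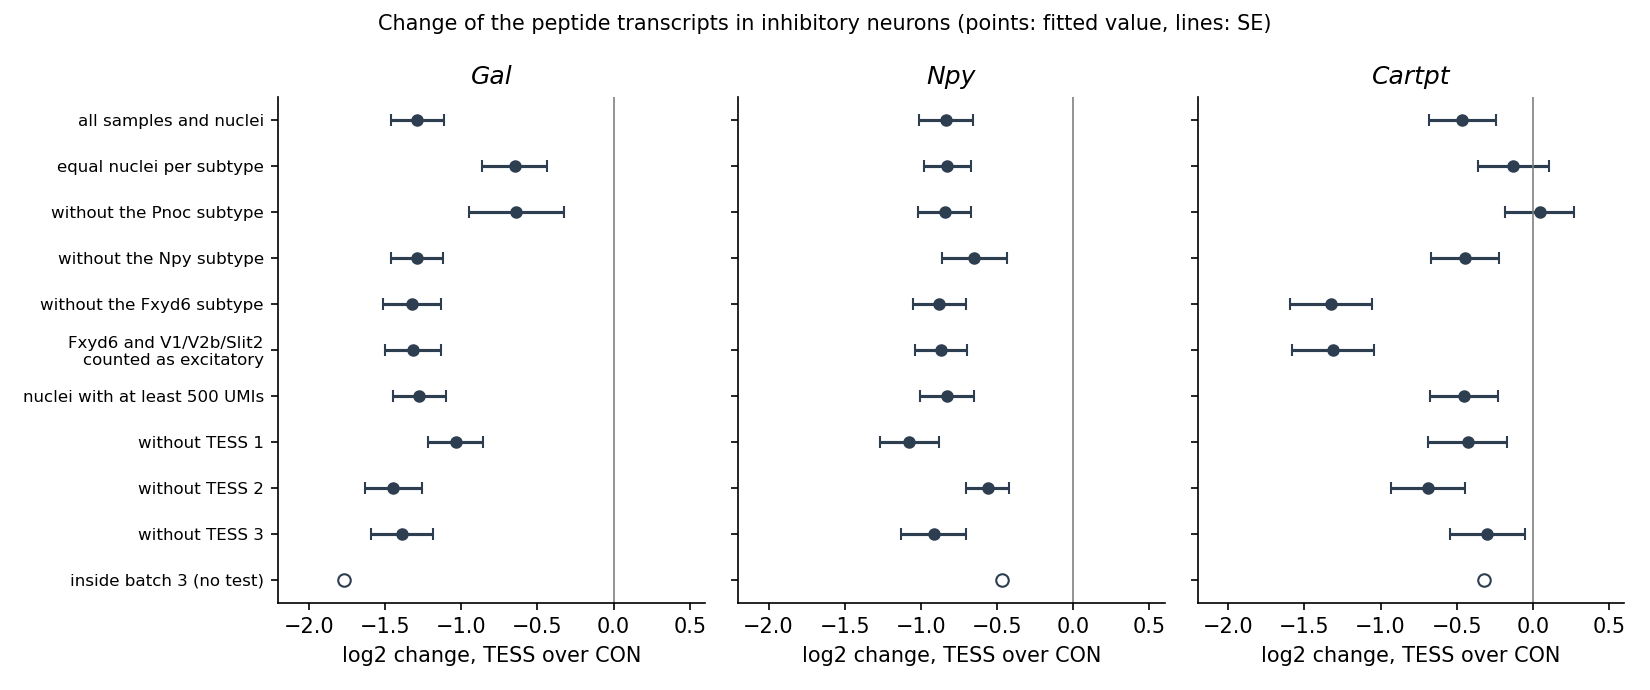
Log2 change of TESS over CON in inhibitory neurons for Gal, Npy and Cartpt (points, with SE as lines) when subtypes, nuclei or samples are left out or moved; the open point has no test. Npy stays between −1.07 and −0.47, Gal moves to −0.64 without Pnoc, and Cartpt runs from −1.33 to 0.05 with the subtypes counted.

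Other peptide genes of spinal neurons were compared over all genes in the same fits. The gene lists used here were chosen with earlier results of these data known, so their counts and medians are descriptions. Of 24 listed, 20 were tested in neurons, where 1.04% of all genes were called. Of the 20, 0 rose and 6 fell by edgeR (5 by DESeq2, not Cck, and 0 with batch as a term): Nts, the neurotensin gene (−1.23 ± 0.16), Grp, gastrin-releasing peptide (−0.93 ± 0.22), Cck, cholecystokinin (−0.81 ± 0.17), Tac2, neurokinin B (−0.68 ± 0.13), Nppc, C-type natriuretic peptide (−0.65 ± 0.14), and Sst, somatostatin (−0.60 ± 0.15). The median of the 20 was −0.62 beside −0.01 over all genes. Nts passed in neurons with each sample left out in turn; the other 5 did not pass without 2 to 5 of the 6 samples, TESS 2 or CON 3 among them for each. In excitatory neurons, where 0.94% of all genes were called, 5 of 18 fell and 0 rose by edgeR, and DESeq2 called 2, Nts and Sst. Nts passed there with each sample left out, Nppc did not pass once any 1 of the 6 was left out, and Grp, Cck and Sst did not pass without 4, 3 and 3 of the samples, CON 3 and TESS 2 among them for each. In inhibitory neurons 12 were tested, with a median of −0.36, and 0 passed by edgeR or DESeq2, with 5 at an unadjusted p under 0.05 by edgeR. Of 15 peptide processing genes, 6 had an unadjusted p under 0.05 by edgeR in neurons, 6 in excitatory and 2 in inhibitory neurons. Pcsk1, which encodes a prohormone convertase that cuts peptide precursors, was the 1 that passed. It rose by 0.94 ± 0.17 in neurons, 0.88 ± 0.19 in excitatory and 1.19 ± 0.27 in inhibitory neurons. Its level in neurons went from 31.4 ± 2.7 to 61.2 ± 8.4 CPM, and it did not pass there without CON 2 or TESS 3, nor with batch as a term. In excitatory and in inhibitory neurons it did not pass without any 1 of the samples other than TESS 1. DESeq2 called it in excitatory neurons and gave it no adjusted p in the others. None of the 20 tested genes of Gi/o and GIRK signalling, the route that galanin and neuropeptide Y receptors use, passed in neurons by edgeR or DESeq2, with 2 at an unadjusted p under 0.05 by edgeR and a median of 0.12. Of 12 dorsal inhibitory lineage factors tested in neurons, Zfhx3 passed (0.57 ± 0.13), but not once any 1 of the 6 samples was left out. The median was −0.23, with 5 of the 12 at an unadjusted p under 0.05 by edgeR. In excitatory neurons 3 were tested, and Zfhx3 rose and passed by edgeR and DESeq2. It did not pass there once any 1 of the 6 samples was left out. In inhibitory neurons 12 were tested and 0 passed, with 6 at an unadjusted p under 0.05 by edgeR.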

How the data were processed

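Single-nucleus libraries (10x version 2) were counted by the authors, and the deposited values are UMI counts per gene and nucleus, with subtype and batch from the deposited metadata. Cell Ranger 2.2.0, Seurat 3, mm10 and GRCm38 appear in the submitters' processing notes. No source used here gives filters on nuclei, doublet removal or strand, and no doublet caller was run. The deposited metadata also hold a fraction per nucleus, named pm and not explained there, which was read for its range alone (at most 4.92%). Members and gene lists were chosen with earlier results of these data known. Counts were summed per sample and class, and 3 TESS were compared with 3 CON samples in edgeR 4.0.16 (R 4.3.3; quasi-likelihood test, TMM, filterByExpr with a minimum count of 10, Benjamini-Hochberg over all genes, threshold 0.05), checked on simulated data; DESeq2 1.42.0 was an alternative. SE is the change over the square root of F. CPM are UMIs scaled to 1000000 UMIs of the class or subtype. Subtype fits needed 10 nuclei in every sample (24 of 38). Shares were compared by exact permutation (scipy). Named were the 7 members, list genes that passed, the genes most like each peptide and the subtypes with the highest levels. Promoter windows are from RefSeq (GRCm38.p6), which matched 6 of 7 members. Alternatives were other tools, filters, samples, classes, depths and nuclei. Precision is limited by counting error and by 3 samples a group.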

Additional observations from a re-analysis of the deposited data

Results flagged for a closer look

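The Gal difference between TESS and CON samples was not alike in inhibitory and excitatory neurons: the inhibitory change minus the excitatory change was −1.48 ± 0.27 on the log2 scale (adjusted p = 0.0025 for the interaction in edgeR, 6 of 10795 genes called). Gal was among the genes chosen with these comparisons known, so the p is a description and supports nothing. The inhibitory change itself was −1.29, −0.65 with equal nuclei per subtype and −0.64 without Pnoc, and stimulation cannot be told apart from agonists, if CON mice had none, or, beyond TESS 1, from batch. For Cartpt the same difference was 0.86 ± 0.37 and, with Fxyd6 and V1/V2b/Slit2 counted as excitatory, −1.60 ± 0.27, and for Npy it was −0.07 ± 0.39 and −1.004 ± 0.213. Sst, the somatostatin gene, differed between the classes by 0.65 ± 0.11 (adjusted p = 0.0015, edgeR), and by −0.04 ± 0.14 with both subtypes counted as excitatory. Sst came from a list chosen with earlier results known, so its p is a description.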

How the results depend on the processing

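Genes called in all nuclei (101), all neurons (122), excitatory (89) and inhibitory neurons (23) depended on the settings. DESeq2 called 158 in all nuclei and 46 in excitatory neurons, and no filter called 250, 335, 163 and 146 in the order above. With batch as a term, which leaves TESS 1 against CON 1 and CON 2, 0 were called in all nuclei and in neurons (961 and 765 at an unadjusted p under 0.05, edgeR) and 20 in excitatory neurons. Nuclei of at least 500 UMIs gave 7 in all nuclei, and equal nuclei per subtype 58 in excitatory and 39 in inhibitory neurons. Leaving out a sample gave 18 to 118 in all nuclei, 19 to 105 in neurons, 23 to 68 in excitatory and 1 to 41 in inhibitory neurons; without TESS 3 the counts were 18, 19, 23 and 1. Same-numbered samples did not deviate together (r of −0.05, −0.02 and −0.0016), and the replicate block called 169 in neurons, 142 in excitatory and 86 in inhibitory neurons.

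In inhibitory neurons Gal was −1.44 to −1.04 with a sample left out, −1.77 inside batch 3, −0.65 with equal nuclei and −0.64 without Pnoc. Npy was −1.07 to −0.56 with a sample left out, −0.83 by DESeq2, −0.47 with batch as a term and −0.65 without the Npy subtype; Cartpt was −0.73 to −0.26, −1.33 with class by nuclei, −1.31 with both mixed subtypes as excitatory, −1.33 without Fxyd6 and 0.045 without Pnoc. In neurons Cartpt was 0.029 without Pnoc. In excitatory neurons the sign turned for Gal (−0.078 without CON 1, −0.078 to 0.58 over samples left out, −0.066 with equal nuclei), for Npy (0.15 by nuclei, 0.11 with mixed subtypes), for Cartpt (0.37 and 0.30) and for Npy5r (0.025 with batch as a term and 0.022 inside batch 3). Settings with subtypes left out or moved were chosen after seeing the data. The cause was not tested. Shares did not overlap for 2 subtypes, for 1 as a share of the class and for 2 to 8 with a sample left out. Of the pathway genes, 1 differed between classes, and 0 with mixed subtypes as excitatory.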
